A study of Mus musculus with 4 samples.

Results

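The mRNAs of the Rab GTPases were examined in a map of NAT10 binding to RNA in mouse 32D cells. Members were all gene symbols made of Rab, a number and an optional letter and digit, which leaves out Rab effectors and Rab regulators. The RefSeq gene table held 59 such genes, and 10 of them had a row in the deposited peak list: Rab1a, Rab2b, Rab6a, Rab7, Rab10, Rab12, Rab14, Rab21, Rab24 and Rab44. They carried 28 of the 4172 distinct peaks of the list. A gene among the other 49 is without a listed peak, which does not show that NAT10 leaves its mRNA unbound.

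The assay was eCLIP, in which ultraviolet light ties proteins to the RNA they touch and the bound fragments are sequenced after immunoprecipitation. The 4 libraries were 2 NAT10 immunoprecipitates made with a NAT10 antibody and 2 inputs without antibody. All came from wild-type 32D cells, an interleukin-3-dependent line from mouse bone marrow, grown with 10 ng/mL interleukin-3 and irradiated at 254 nm. The labels do not name the cultures behind the replicates, no group lacked NAT10, and the stated purpose was to find the mRNAs that NAT10 binds directly. The labels call the cells lymphoblastocytes: of 12 lymphoid marker genes 0 had a peak, and of 12 myeloid and progenitor markers 4 had one (Csf2rb, Prtn3, Ptprc and Gata2), where Ptprc is also made by lymphoid cells. With 7.33% of all protein-coding genes having a peak, 0 of 12 is near that background, and a peak list does not measure expression, so these counts do not settle the cell type.

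Rab proteins are small GTPases that give membranes their identity. Each switches between a GTP-bound form on its own membrane, where it recruits effectors such as tethers and motors, and a GDP-bound form that is drawn off into the cytosol. NAT10 is the acetyltransferase that places N4-acetylcytidine (ac4C) on RNA. No base sequence of a peak is given here, because no genome of the build of the peaks was used.

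Each peak has 1 fold and 1 p from the authors, summed up over all libraries. The fold was read as the log2 of NAT10 immunoprecipitate over input and the p as -log10 p. Both behave as if built from whole read numbers: the p is then that of the weaker of 2 pairs of immunoprecipitate and input, and the fold is the mean over both pairs. Read numbers were rebuilt on that basis for 27 of the 28 Rab peaks, each with 1 solution. Of all peaks 91.2% had a solution and 88.3% a single one, and of the 40 most frequent p used to fit the depths 30 were matched by whole reads. The pairs are called A and B, since the values do not show which is replicate 1. In the pair with the better p only the ratio of the reads is fixed, and it is given at the smallest numbers that fit. The rebuilt depth of the immunoprecipitate was 0.539 of that of the input in pair A and 0.613 in pair B.

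The share of Rab genes with a peak was 16.9% (10 of 59), against a background of 7.33% of 21900 protein-coding genes. Other small GTPases lay close to the Rab genes: 16 of 89 genes of other small GTPase families had a peak (18.0%). A share above the background was thus found in the Arf and Ras families too. Of 5 Rab-like genes 0 had a peak, but these are too few to read a difference from. No test of these shares was made. The background counts genes whether or not 32D cells transcribe them, and it was 8.53% without olfactory, vomeronasal and predicted genes. Stronger peaks, with a log2 fold above the list median of 4.60, were found for 6 Rab genes (10.2%, against a background of 3.95%). Peaks with a -log10 p of at least 5 were found for 5 Rab genes (8.47%, against a background of 4.1%). Rab genes had a median genomic span of 23213 nt, against 17146 nt for all protein-coding genes, and the part of this difference in the shares was not tested.

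**Figure D1:**
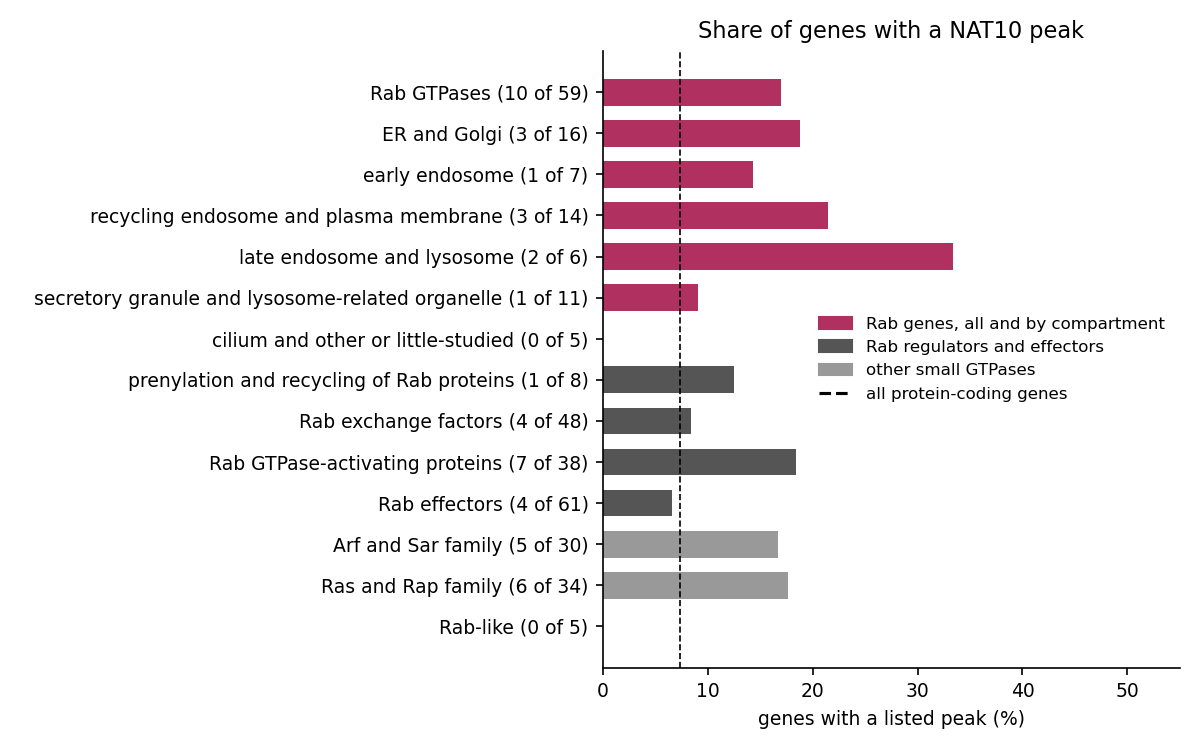
Percentage of genes with a listed NAT10 peak (x axis) for all Rab GTPases and their membrane compartments (red), for Rab regulators and effectors (dark grey) and for 3 families of other small GTPases (light grey), with the number of genes beside each name; the dashed line is the share of all protein-coding genes, 7.33%. All Rab genes stand at 16.9%, and the Arf and Ras families at 16.7% and 17.6%.

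The Rab genes with a peak came from most of the compartment groups. Of the genes of the endoplasmic reticulum and Golgi 3 of 16 had a peak (18.8%, against a background of 7.33%). The recycling endosome and plasma membrane had 3 of 14 (21.4%), and the late endosome and lysosome 2 of 6 (33.3%). The early endosome had 1 of 7 (14.3%), and secretory granules and lysosome-related organelles 1 of 11 (9.09%). In the last group, which holds Rab23 and Rab28 of the cilium and the little-studied Rab40b, Rab40c and Rab42, 0 of 5 had one. With so few genes in a group, 1 gene moves a share by several percentage points, and no order of compartments was read from these shares.

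By the strongest fold of a gene the Rab genes were ordinary for the list, and none of their peaks was among its strongest. The strongest peak of a Rab gene had a median log2 fold of 4.65 over 10 genes, against 4.69 over 1619 other gene identifiers. The highest Rab value was 5.38, whereas the list reached 11.00. Over single peaks the Rab values were lower. The median log2 fold was 4.48 for Rab peaks and 4.60 for the others, and the median -log10 p was 4.35 against 5.68. A log2 fold above the list median was held by 39.3% of Rab peaks, against 49.2% of other peaks. These differences were not tested. Of the 28 Rab peaks 11 (39.3%) had a -log10 p of at least 5, against 56.9% of other peaks.

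**Figure D2:**
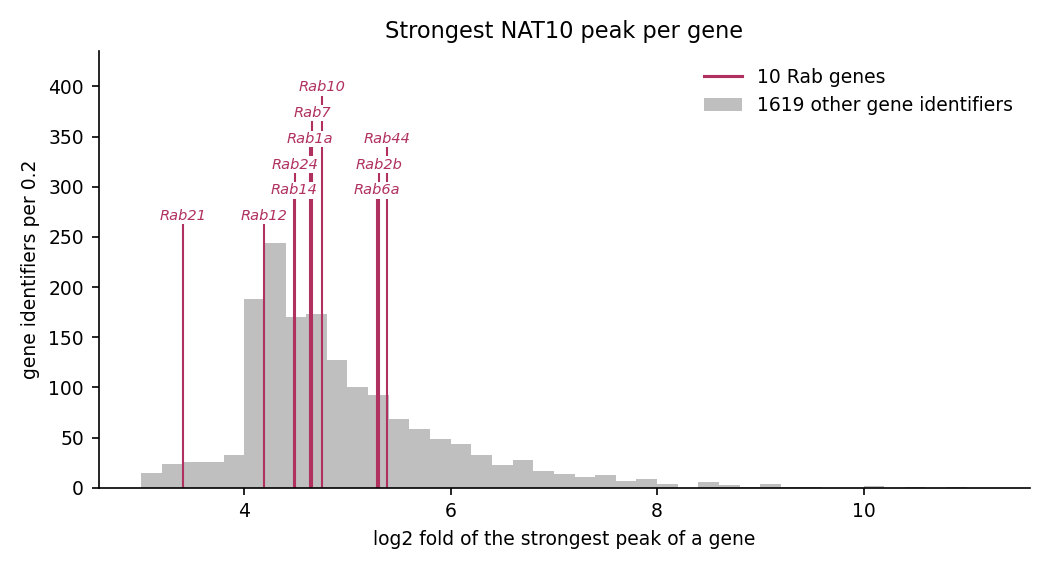
Log2 fold of the strongest peak of a gene (x axis) for the 10 Rab genes (red lines, each with its name at a height chosen for legibility) and, as a histogram, for 1619 other gene identifiers (grey, number of identifiers per 0.2 on the y axis). The Rab genes lie between 3.41 and 5.38, inside the bulk of the distribution.

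The granule-associated Rab44 had the most listed peaks and the strongest one, although with touching peaks joined Rab7 had more stretches (5 against 4). Rab44 is an unusually large Rab that carries EF-hand and coiled-coil regions besides its GTPase part and acts in mast cell granule release. Its 6 peaks lay in the 5' UTR (4) and in exons (2), and 0 were in the 3' UTR. The strongest, at chromosome 17, 29355105 to 29355211 on the plus strand, rested on 23 immunoprecipitate reads over 1 input read in pair A and 25 over 1 in pair B. Its log2 fold was 5.42 in pair A and 5.35 in pair B, and 5.38 as deposited, which is 41.7-fold. The numbers of pair A are fixed by its p, and those of pair B are the smallest that fit. From the counts of pair A alone the fold had an exact 95% interval of 6.93 to 1759, so its lower bound is informative and its upper bound is not.

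The 5' UTR peaks of Rab44 formed 2 blocks. The first block began at position 29354695 and consisted of peaks of 84 and 34 nt that touched each other, with log2 folds of 5.03 and 4.73. The second began 292 nt further on with the strongest peak and ended with a peak of 61 nt at 5.11. All 4 had a log2 fold above the median of the whole list. Of 152 gene identifiers with a 5' UTR peak, 12 had 4 or more, Rab44 among them. Of the exon peaks, the one at 29358380 to 29358494 had the highest -log10 p of any Rab peak, 10.9, with 29 and 41 immunoprecipitate reads over 2 input reads in each pair. The last exon peak was weaker, with a log2 fold of 3.64. Cdkn1a on the same strand, 35306 nt away, held the nearest peak of another gene, so no listed peak of a neighbour overlapped Rab44.

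**Figure D3:**
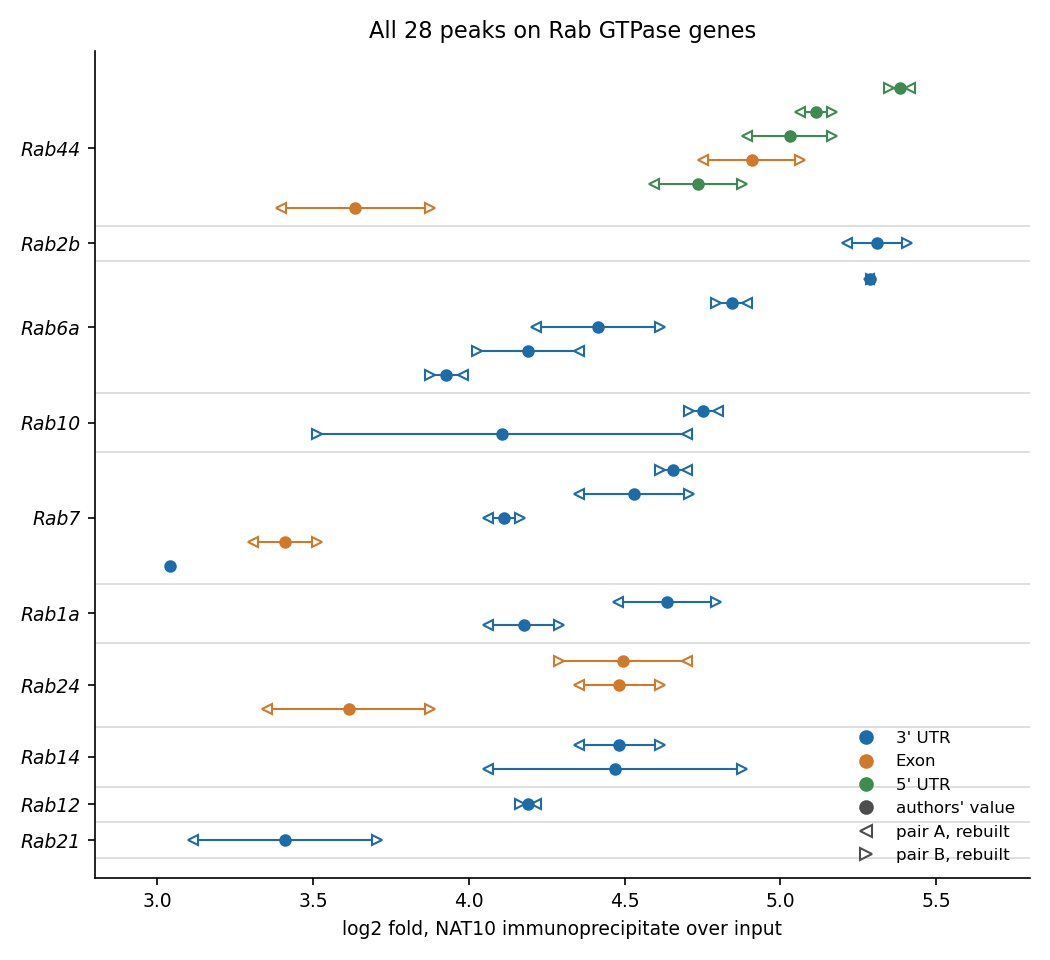
Log2 fold of NAT10 immunoprecipitate over input (x axis) for all 28 peaks, grouped by gene (y axis) and coloured by the authors' class; filled circles are the deposited values and open triangles the values of pair A and pair B rebuilt from read numbers. The 2 pairs lie close together for most peaks and farthest apart, by 1.19, for the second peak of Rab10; the weakest Rab7 peak has no rebuilt values.

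Among the genes of the early secretory route, Rab1a, Rab2b and Rab6a had peaks, all of them in the 3' UTR. Rab2b, a Rab of the route between the endoplasmic reticulum and the Golgi, had 1 peak, at chromosome 14, 52500131 to 52500297 on the minus strand. It had 20 immunoprecipitate reads over 1 input read in pair A and 26 over 1 in pair B, and log2 folds of 5.21 and 5.41. A single wide peak of 167 nt thus gave Rab2b nearly the fold of the strongest Rab44 peak.

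Rab6a, which acts in transport within the Golgi and back to the endoplasmic reticulum, had 5 peaks within 589 nt. The first 3 touched each other and together began at chromosome 7, 100289424, with log2 folds of 3.93, 4.84 and 4.19. The strongest came last, at 100289884 to 100290012, with 21 and 24 immunoprecipitate reads over 1 input read each and a log2 fold of 5.29 in both pairs. Its -log10 p was 8.41. Rab6a therefore showed 3 separate bound stretches, of which the last held the strongest peak.

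Rab1a, the Rab of transport from the endoplasmic reticulum to the Golgi, had 2 peaks that were 20 nt apart. The stronger, at chromosome 11, 20175169 to 20175286, had 12 immunoprecipitate reads in pair A and 17 in pair B, over 1 input read each, and a log2 fold of 4.64. The other stood at 4.18, with 9 and 12 reads. Their closest relatives, Rab1b, Rab2a and Rab6b, were without a listed peak, as were 10 more genes of this compartment, among them Rab18 and Rab43. The treatment of reads shared between such relatives or with pseudogenes is not stated in the labels.

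Of the recycling and plasma membrane genes, Rab10, Rab12 and Rab14 had peaks, and all 5 of these lay in the 3' UTR. Rab10, which directs exocytic vesicles such as those with the glucose transporter GLUT4, had its stronger peak at chromosome 12, 3298644 to 3298772. That peak had 15 and 16 immunoprecipitate reads over 1 input read each and a log2 fold of 4.75. Its second peak, 752 nt downstream, was where the pairs agreed least. Pair B had 14 immunoprecipitate reads over 2 input reads there, and pair A had 14 over 1 at the smallest numbers that fit, so the log2 fold was 4.70 in pair A and 3.51 in pair B. The deposited value was 4.11.

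Rab14, which works between the trans-Golgi network and endosomes, had 2 touching peaks that together covered 108 nt of chromosome 2 from 35071667. They had similar log2 folds, 4.48 and 4.47, but unlike agreement: the pairs differed by 0.26 for the first and by 0.81 for the second. The second had 9 immunoprecipitate reads in pair A and 18 in pair B. Rab12, which routes the transferrin receptor towards lysosomes, had 1 peak of 84 nt at chromosome 17, 66801639, with 10 and 11 reads and a log2 fold of 4.19. Rab11a and Rab11b of the recycling endosome, Rab8a and Rab8b of exocytic carriers, and Rab4a, Rab4b and Rab35 were among the 11 genes of this compartment without a listed peak.

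Along the endocytic route, Rab7, Rab21 and Rab24 had peaks. Rab7, which drives the maturation of late endosomes and their fusion with lysosomes, was the only Rab gene with peaks in both an exon and the 3' UTR. Its 4 peaks in the 3' UTR lay on chromosome 6 between 87976358 and 87977245, and the strongest, at 87977115 to 87977170, reached 4.66 with 14 and 15 immunoprecipitate reads over 1 input read each. The exon peak, 12126 nt upstream in the genome, stood at 3.41 and had 16 and 21 immunoprecipitate reads over 3 input reads each. The fourth Rab7 peak in transcript order, at 3.04, was the weakest of all Rab peaks and could not be rebuilt from read numbers.

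Rab24, an atypical Rab linked to autophagy, was bound in exons alone. Its 3 peaks lay within 377 nt of chromosome 13 from 55468124, the first 2 of them touching, and had log2 folds of 3.61, 4.48 and 4.50. It spans 2758 nt in the gene table, the shortest of the 10 genes with a peak. Rab21, an early endosomal Rab of integrin traffic, had 1 peak in the 3' UTR at chromosome 10, 115124371 to 115124508. With 14 immunoprecipitate reads over 3 input reads in pair A and 16 over 2 in pair B, its log2 fold was 3.12 and 3.71. Rab5a, Rab5b and Rab5c, the Rabs that define the early endosome, were all without a listed peak, as were Rab9 and Rab7b of the late endosome.

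**Figure D4:**
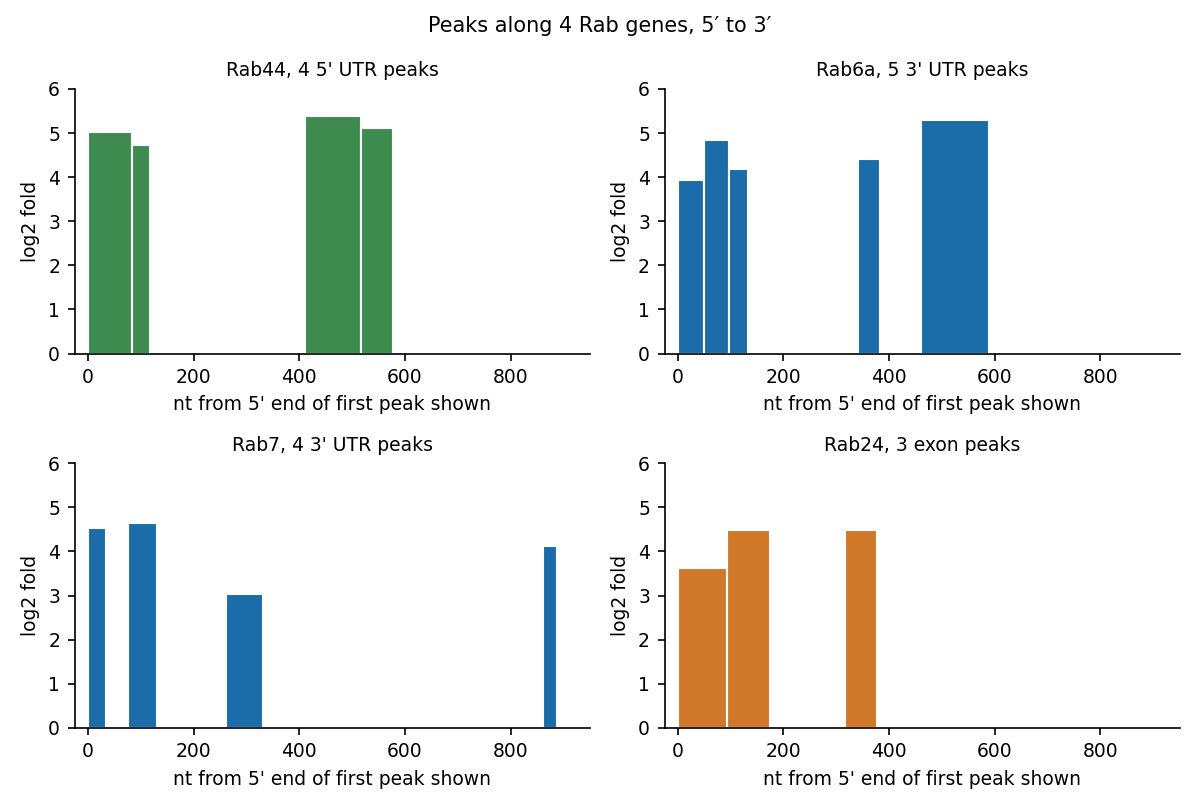
Peaks of Rab44 (5' UTR), Rab6a (3' UTR), Rab7 (3' UTR) and Rab24 (exon class) as bars, with distance in nt from the 5' end of the first peak shown on the x axis and deposited log2 fold on the y axis; the width of a bar is the width of the peak. Rab44 shows 2 blocks of touching peaks, Rab6a 3 stretches with the strongest last, Rab7 4 separate short peaks, and Rab24 a touching pair and a separate peak.

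Ordered by strongest peak, some neighbouring genes overlapped in the values of their pairs and others did not. In pairs A and B, Rab6a (5.29 in both) lay above Rab10 (4.80 and 4.71), and Rab10 just above Rab7 (4.70 and 4.61). Rab14 (4.35 and 4.61) likewise lay above Rab12. Rab44 (5.38) and Rab6a (5.29) lay between the values of the 2 pairs for Rab2b, 5.21 and 5.41. Rab10 (4.75) and Rab7 (4.66) lay between those for Rab1a, 4.48 and 4.79. Rab7, Rab1a (4.64) and Rab14 (4.48) lay between those for Rab24, 4.29 and 4.70. Rab21 had the lowest strongest peak, with 3.12 and 3.71 in the 2 pairs, below Rab12 with 4.21 and 4.17. The exact 95% interval of the fold in pair A was 2.42 to 47.0 for Rab21 and 2.64 to 806 for Rab12, so counting error alone does not separate these genes.

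The read numbers behind the Rab peaks were small. In the pair with the weaker p, whose numbers are fixed, the immunoprecipitate had 9 to 29 reads over the 27 rebuilt peaks, with a median of 14, and 20 of the 27 (74.1%) had 1 input read. Other peaks with 1 solution had a median of 15 immunoprecipitate reads in that pair, and 78.1% had 1 input read. A value of 1 may also stand for an input without reads, if the authors raised zeros to 1. The 2 pairs differed by a median of 0.26 in log2 fold for Rab peaks and of 0.19 for the others. In the same pair, the lower bound of the exact 95% interval of the fold ran from 2.23 to 6.93 over the Rab peaks, for counting error only. The peaks had to pass the authors' threshold, so this agreement is that of selected peaks.

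By the authors' classes, 18 of the 28 Rab peaks were in the 3' UTR (64.3%), against 57.6% of all other peaks. Exons held 6 (21.4%, against 36.8%) and the 5' UTR 4 (14.3%, against 5.62%). The 28 peaks came from 10 genes and some touched each other, so they are not independent, and these differences were not tested. All 4 peaks in the 5' UTR belonged to Rab44, and without that gene 81.8% of the Rab peaks were in the 3' UTR. By gene, 7 Rab genes had peaks in the 3' UTR alone, and Rab7, Rab24 and Rab44 were the exceptions described above. Rab peaks had a median width of 67 nt, against 79 nt for the others. Joining touching peaks left 22 stretches on the Rab genes, of which Rab7 had 5 and Rab44 had 4.

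Genes that act on Rab proteins or are recruited by them made up 4 lists, in which 16 of 155 genes had a peak (10.3%, against the background of 7.33%). Of the 8 genes for prenylation and recycling of Rab proteins 1 had a peak (12.5%): Gdi2 had 8, up to 5.35. It encodes a GDP dissociation inhibitor, the factor that draws GDP-bound Rabs off membranes. Of 48 genes of exchange factors, which load Rabs with GTP, 4 had a peak (8.33%): Ric1 (5.12), Hps1 (4.68), Dennd1a (4.59) and Dennd4a (4.38). Of 38 genes listed as GTPase-activating proteins, a class that switches Rabs off, 7 had one (18.4%). They were led by Tbc1d24 (4.79), Tbc1d31 (4.60), Tbc1d2b (4.50) and Rabgap1 (4.32). Whether each listed protein switches off a Rab was not checked.

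Of 61 effector genes 4 had a peak (6.56%), which is near the background of 7.33%. Of these 4 genes, 3 had a peak stronger than any Rab peak. Fyco1, which links Rab7-bearing vesicles to a kinesin motor, reached a log2 fold of 8.65 in its 3' UTR. Optn, a Rab8 partner and autophagy receptor, reached 7.91 on 1 of 5 exon peaks. Rab11fip1, an effector of Rab11, reached 5.77 and Acap2, a partner of Rab35, 4.19. Of the partner Rabs named here, Rab7 had peaks, while Rab8a, Rab8b, Rab11a, Rab11b and Rab35 had no listed peak. Further Rab partners of these effectors were not considered. Nat10 itself had no row in the list.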

How the data were processed

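NAT10 eCLIP was done on 2 immunoprecipitates and 2 inputs of 32D cells, which the authors joined in 1 peak list for the series. The list deposited by the authors gives each peak a log2 fold of immunoprecipitate over input and a -log10 p. Both readings of these columns rest on the values, since the headers name them only fc and p_value. The peak coordinates, in nt, and the classes are those deposited by the authors. The submitters' processing notes name the build GRCm39. The labels give no aligner, peak caller or cut-off.

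Peaks listed under more than 1 gene were counted once in peak counts. Symbols were matched to the RefSeq table of GRCm38.p6 (1609 matched), used for names, types and spans only; Rab41 of the compartment list had no match. Read numbers were rebuilt with scipy 1.17.1, after the values had been seen, from one-sided Fisher probabilities for large totals. The depth ratios were fitted to the 40 most frequent p, and whole reads (inputs up to 12) had to match p within 0.0005 and fold within 0.0002. The pair with the better p is known only as a ratio and is given at its smallest read numbers. The method was tested on data simulated under the same model. Such a test shows whether read numbers can be recovered, not whether the authors' values were built that way. No test between groups was made, because the deposited list has no value per library. The members and lists were chosen with earlier results of these data known. All Rab genes with a peak were named, and up to 4 genes of each other list, by strongest peak; some genes and 1 family of other small GTPases that the rule would name are not reported here. Alternatives changed the peak threshold, the peak of a gene, the joining of peaks and the background.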

Additional observations from a re-analysis of the deposited data

How the results depend on the processing

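With stronger peaks alone (log2 fold above 4.60) 6 Rab genes kept a peak (Rab1a, Rab2b, Rab6a, Rab7, Rab10 and Rab44), with 7 Rab regulators and effectors and 10 other small GTPases. With a -log10 p of at least 5 the numbers were 5 (the same Rab genes without Rab1a), 7 and 9. These losses follow from leaving out peaks, and the median strongest log2 fold of the Rab genes left was 5.02 and 5.29. The Rab share over the background share was 2.31, and 1.99 to 2.57 over the 3 alternatives for it. Matching by synonym left 10 Rab genes. With the median peak of each gene, the median log2 fold was 4.42. With 1 library pair alone, a setting added after the data were seen, it was 4.66 to 4.70. The share of Rab peaks in the 3' UTR was 54.5% to 80.0% when peaks were restricted, joined or taken 1 per gene, and 81.8% without Rab44, likewise added after the data were seen. No paired analysis was possible because no test between groups was made and the rebuilt pairs, used above 1 at a time, carry no replicate number. In the pair with the weaker p, 20 of 27 rebuilt Rab peaks had 1 input read, as had 78.1% of other peaks with 1 solution. How far depth limits the folds was not tested.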

Other observations

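Of the 16 other small GTPase genes with a peak, 15 had their strongest peak in the 3' UTR, and the remaining one had it in an exon. In the Ras and Rap family 6 of 34 genes had a peak, among them Rap1b (log2 fold of 5.79, with 4 peaks), Nras (5.16) and Rap2b (4.88). In the Arf and Sar family, of which some members recruit vesicle coats, 5 of 30 had one, led by Arl4d (5.16), Arf4 (4.93), Arf6 (4.59) and Arl8b (4.50). Of 5 Rab-like genes 0 had a peak, too few genes to read a difference from. Of the genes named here, Rap1b lay above the strongest Rab peak, which was 5.38.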
